A study of Mus musculus with 39 samples.

Results

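Breast tissue of mice with the triple Bcat genotype was compared with normal mammary gland on Affymetrix expression arrays. The samples were taken by their labels: 3 of the 39 arrays of the series carry the genotype SB/Tg/Bcat, and 4 carry normal mammary gland as their tissue, so 7 of 39 arrays entered the central comparison. By the identifiers in the sample titles, triple Bcat 1 came from 1 animal and triple Bcat 2 and 3 from a second, so the group held 3 arrays from 2 animals. The normal glands came from 4 other animals, of which those of normal glands 3 and 4 also gave triple K5Cre breast arrays. Normal gland 1 was of the triple Bcat genotype, normal gland 2 of the quadruple genotype (SB/Tg/K5Cre/Bcat), and normal glands 3 and 4 of the triple K5Cre genotype (SB/Tg/K5Cre). All 7 arrays therefore shared the elements SB and Tg, and Sleeping Beauty, in the title of the series, is a transposon system that creates insertional mutations. The triple Bcat genotype holds no K5Cre in its label, a Cre recombinase named after the keratin of basal epithelium. The labels call the triple Bcat samples breast and do not say whether they were tumours, and the age and reproductive state of the animals are not given in the sources used here. Breast arrays of the quadruple genotype (19 arrays, 15 animals) and of the triple K5Cre genotype (8 arrays, 8 animals) served as further references. Array numbers follow the order of the samples and carry no other meaning, and no statement says whether the second animal's arrays were separate pieces of tissue, so their spread may be technical.

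The mammary gland is a tree of epithelial ducts, with luminal cells inside and basal cells outside, set in a pad of fat. Beta-catenin joins cadherins at cell junctions and also carries the canonical Wnt signal into the nucleus. Injured or inflamed epithelium makes interleukin 1, which acts through NF-kappaB to switch on chemokines of the ELR class. These bind the receptor Cxcr2 on neutrophils, and granulocyte colony-stimulating factor raises the output of neutrophils from the marrow. In whole tissue, fewer cells of a type and less RNA per cell cannot be told apart.

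The arrays of each group did not resemble each other equally. Across all genes, which are not independent replicates, triple Bcat 2 and 3 correlated at r = 0.989, while triple Bcat 1 correlated with them at r = 0.943 and 0.924. Triple Bcat 2 and 3 correlated more closely with normal gland 1, at r = 0.949 and 0.957, than with triple Bcat 1. Among the glands, normal gland 1 stood at least 2.0 log2 units above the other glands in 163 genes, against at most 17 genes for any of the other glands, and at least as far below them in 9 genes. Triple Bcat 1 lay at least 2.0 log2 units above both other triple Bcat arrays in 298 genes and as far below them in 282 genes, while triple Bcat 2 and 3 differed that far in 57 genes. Normal gland 3 was low in Xist, the RNA of the inactive X chromosome, named after its values were seen, at 5.64 against 11.77 to 12.24 in the other glands. Of the 114 called genes named below, 82 lost their call without triple Bcat 1, 49 without normal gland 3 and 17 without normal gland 1.

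By limma, with p-values adjusted over 18194 genes by the Benjamini-Hochberg procedure, 1296 genes differed from normal gland (7.12% of those tested), 317 of them higher in triple Bcat breast (1.74%) and 979 lower (5.38%). The median difference of all genes was -0.006 on the log2 scale. Of the genes called, 204 were at least 2-fold higher and 709 at least 2-fold lower. The count depended on single arrays, as the plot of calls by the arrays used shows. Without triple Bcat 1 it was 328, and without normal gland 3 it was 710. The genes called in both settings with the same direction numbered 310 without triple Bcat 1 and 707 without normal gland 3. Against normal gland 1 alone, the gland of the same genotype, a group of 1 array widens the error, so fewer calls need not mean smaller differences. The medians there were -5.06 for skeletal muscle, -3.62 for white adipocyte and 2.83 for neutrophil genes, while 10 of 54 list medians changed sign. No gene called with all arrays turned its direction when any single array was left out. Leaving out any other single array gave 954 to 1247 genes, but the split moved too: the calls higher in triple Bcat breast numbered 172 without normal gland 2 and 190 without normal gland 4.

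**Figure D1:**
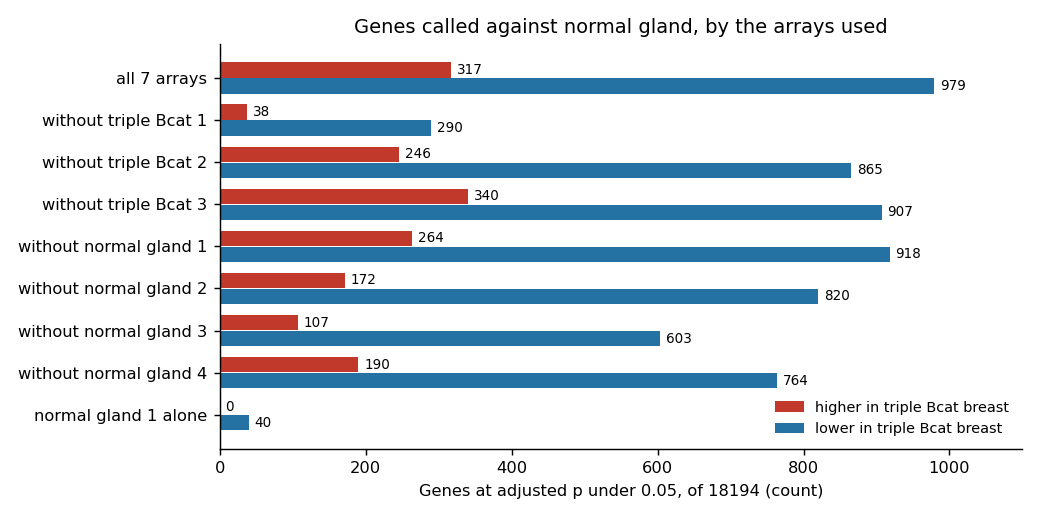
Number of genes (x axis) at an adjusted p under 0.05 in triple Bcat breast against normal gland, higher (upper bar, red) or lower (lower bar, blue), with all arrays and with an array left out. The bars shrink from 317 and 979 with all arrays to 38 and 290 without triple Bcat 1. They are shortest when normal gland 1 is the only gland, a fit with 1 array in that group.

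Chemokines that attract neutrophils were among the genes that rose. Of 14 measured ELR chemokines, related chemokines and colony-stimulating factors, 7 rose and 0 fell, with a median log2 difference of 2.42 against -0.006 for all genes. Cxcl3, a ligand of Cxcr2, read 11.14, 10.87 and 10.45 in triple Bcat 1 to 3, against 4.61, 3.14, 2.56 and 2.79 in normal glands 1 to 4. Its lowest triple Bcat array lay far above its highest gland, and the fitted log2 difference was 7.70 (SE 1.94, adjusted p = 0.0114). Cxcl5, the ELR chemokine of epithelial and stromal cells, read 10.28, 11.41 and 11.12 in triple Bcat breast, against 5.81, 4.59, 2.72 and 3.66 in normal gland (6.91, SE 1.91, adjusted p = 0.0211). Here triple Bcat 1 was the lowest of its group, and the groups again did not overlap. Cxcl2, whose product acts on the same receptor, read 12.18, 10.50 and 10.74 in triple Bcat breast, against 6.36, 4.97, 3.96 and 5.15 in normal gland (6.28, SE 1.61, adjusted p = 0.0130). Normal gland 1 was the highest gland for all 3 chemokines, and normal gland 3 the lowest.

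Cxcl1 was already present in the glands and did not pass the test. It read 10.50, 9.72 and 9.87 in triple Bcat breast, against 7.91, 8.30, 7.26 and 8.10 in normal gland (2.39, SE 0.85, adjusted p = 0.0813). The groups did not overlap, as was the case for all arrays above all glands in 12.4% of all genes. Ppbp, a platelet and myeloid chemokine, rose by 4.25 (SE 1.27, adjusted p = 0.0340), with 7.77, 9.95 and 9.58 against 5.19, 4.44, 4.86 and 4.12. The second animal was the higher one for Ppbp. Ccl3 and Ccl4, chemokines of macrophages and neutrophils, rose by 4.23 (SE 1.06) and 2.44 (SE 0.56). Ccl3 read 10.07, 6.88 and 8.17 in triple Bcat breast, against 5.43, 4.60, 3.17 and 4.24 in normal gland. Csf3, the gene of granulocyte colony-stimulating factor, read 10.08, 7.85 and 8.08 in triple Bcat breast, against 5.51, 4.84, 5.94 and 5.40 in normal gland (3.40, SE 0.91, adjusted p = 0.0164). For both genes triple Bcat 1 was the highest array.

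The other members did not pass: Ccl20 (1.61), Csf2 (0.85), Pf4 (0.22), Csf1 (0.09), Cxcl15 (-2.56) and Kitl (-1.36) had adjusted p of at least 0.123. Pf4, a platelet chemokine, was low in triple Bcat 1 (7.98) and high in triple Bcat 2 and 3 (10.44 and 11.52), with the glands between 9.12 and 9.91. Cxcl15, a chemokine of glandular epithelium, ranged from 3.42 to 8.21 in triple Bcat breast and from 5.42 to 11.33 in normal gland. Without triple Bcat 1 none of the 7 rises passed the test, though the list median was still 2.09, and without normal gland 3 it was 5 of 7 that passed. Against normal gland 1 alone none passed, with a list median of 2.20.

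Cxcl1, Cxcl2 and Cxcl3 lie on mouse chromosome 5. Their promoters are shown because they hold the same run of bases near the start of transcription, while Cxcl2 and Cxcl3 rose and Cxcl1 did not pass. Each line gives the 250 bases before the annotated start, on the plus strand of GRCm38.p6 as listed by RefSeq, with the kappaB run in capitals.
Cxcl3, chr5:90785851-90786100: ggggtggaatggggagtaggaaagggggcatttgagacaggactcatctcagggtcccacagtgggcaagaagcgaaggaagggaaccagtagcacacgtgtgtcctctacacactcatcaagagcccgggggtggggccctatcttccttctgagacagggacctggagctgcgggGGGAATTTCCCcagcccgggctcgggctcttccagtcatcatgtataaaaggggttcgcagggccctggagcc
Cxcl1, chr5:90890995-90891244: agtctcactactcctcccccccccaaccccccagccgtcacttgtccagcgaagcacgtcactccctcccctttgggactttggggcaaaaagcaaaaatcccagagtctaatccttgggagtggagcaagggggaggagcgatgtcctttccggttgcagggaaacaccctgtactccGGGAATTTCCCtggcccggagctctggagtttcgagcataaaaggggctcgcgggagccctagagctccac
Cxcl2, chr5:90903649-90903898: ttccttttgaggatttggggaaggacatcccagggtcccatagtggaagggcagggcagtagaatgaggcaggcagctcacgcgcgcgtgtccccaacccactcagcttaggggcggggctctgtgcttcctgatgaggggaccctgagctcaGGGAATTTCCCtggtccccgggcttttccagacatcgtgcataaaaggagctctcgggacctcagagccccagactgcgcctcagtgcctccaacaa

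The run GGGAATTTCCC starts 73 bases before the start of Cxcl3, 71 before that of Cxcl1 and 97 before that of Cxcl2. On either strand, the kappaB consensus was found in 1281 of 32851 promoters of this length (3.90%). Of 18 inflammatory genes with a promoter in the table, 3 held the kappaB consensus, and they are the ones shown. The AP-1 motif TGANTCA was found in 7 of the 18, against 6.75% of all promoters, and the C/EBP motif TTNNGNAA in 12, against 36.9%. The 18 genes were picked from the inflammatory genes named here, nearly all of which rose, and 1 promoter was scanned for each. The shares are therefore no test of enrichment. A match is a description of the letters and was not tested as a binding site.

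The interleukin 1 genes rose beside the chemokines. Of 20 measured cytokine genes of the IL-1, IL-6 and TNF classes, 5 rose and 0 fell, with a median log2 difference of 2.38 and a positive difference in all 20. Il1b, a secreted pyrogenic cytokine, read 11.71, 10.09 and 10.40 in triple Bcat breast, against 6.99, 6.0, 5.91 and 6.41 in normal gland (4.67, SE 1.14, adjusted p = 0.00885). Il1a, an alarm cytokine held inside epithelial cells, read 10.17, 7.92 and 7.09 in triple Bcat breast, against 4.84, 4.44, 3.60 and 4.25 in normal gland (4.35, SE 1.15, adjusted p = 0.0159). Il1rn, which blocks the interleukin 1 receptor, read 10.55, 9.12 and 9.07 in triple Bcat breast, against 6.71, 5.23, 4.03 and 5.57 in normal gland (4.39, SE 1.14, adjusted p = 0.0142). All 3 were highest in triple Bcat 1, and in none did a gland reach the lowest breast array. The plot of chemokine, interleukin and neutrophil genes by array shows these values.

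**Figure D2:**
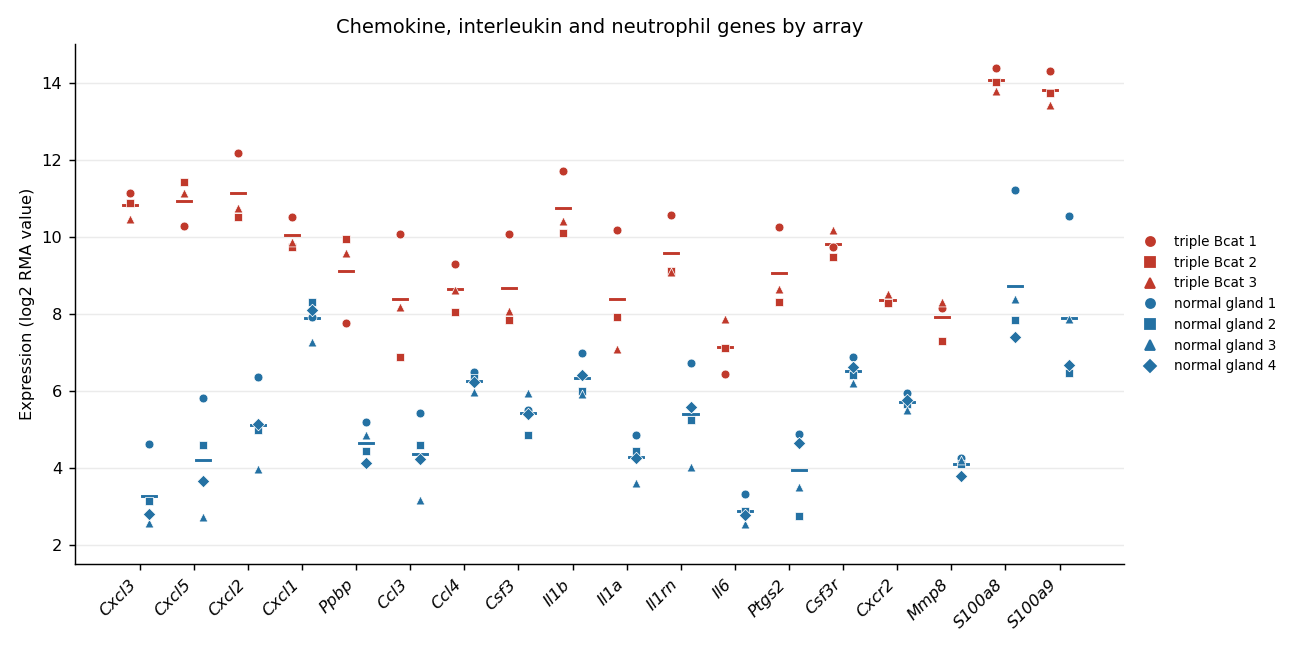
Log2 RMA value (y axis) of 18 chemokine, interleukin and neutrophil genes in each array, with triple Bcat breast in red to the left of normal gland in blue; the symbols tell the arrays apart and the short lines are group means. For every gene drawn the triple Bcat arrays lie above all 4 glands, and normal gland 1 stands above the other glands for S100a8 (11.22) and S100a9 (10.53).

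Osm, oncostatin M, also rose (1.62, SE 0.41, adjusted p = 0.0109), with 7.80, 6.33 and 6.40 against 5.42, 5.21, 5.28 and 5.32. Il17a passed the test on 1 array: it read 7.35 in triple Bcat 1, but 3.39 and 3.73 in triple Bcat 2 and 3, inside or near the gland range of 3.18 to 3.55 (1.70, SE 0.48, adjusted p = 0.0239). Its call was lost without triple Bcat 1, normal gland 2 or normal gland 3, and also without the animal block, in the fit of the 2 groups alone and with array weights. Il6 had a large difference that did not pass, with 6.43, 7.12 and 7.86 in triple Bcat breast, against 3.31, 2.88, 2.54 and 2.78 in normal gland (4.05, SE 1.37, adjusted p = 0.0654). Il33 (2.53), Il24 (3.08) and Tnf (0.68), the gene of tumour necrosis factor, did not pass either, at adjusted p = 0.281, 0.123 and 0.201. Without triple Bcat 1 none of the 5 calls was kept and the list median was 1.23, and without normal gland 3 it was 3 of 5 that were kept.

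Genes typical of neutrophils rose in the same arrays. Of 21 measured neutrophil genes 11 rose and 0 fell, with a median log2 difference of 3.42. All triple Bcat arrays lay above all glands for 17 of the 21, against 12.4% of all genes. Csf3r, the receptor for granulocyte colony-stimulating factor, read 9.74, 9.48 and 10.17 in triple Bcat breast, against 6.87, 6.41, 6.20 and 6.62 in normal gland (3.42, SE 0.84, adjusted p = 0.00989). Cxcr2, the receptor of the ELR chemokines, read 8.28, 8.28 and 8.50 in triple Bcat breast, against 5.94, 5.65, 5.50 and 5.76 in normal gland (2.77, SE 0.66, adjusted p = 0.00741). For both receptors the 3 breast arrays lay close together, far above the glands. Mmp8, the collagenase of neutrophil granules, read 8.16, 7.30 and 8.31 in triple Bcat breast, against 4.25, 4.10, 4.20 and 3.80 in normal gland (3.82, SE 0.79, adjusted p = 0.00241), and it was the single call of this list that was kept without triple Bcat 1. Without normal gland 3 it was 5 of the 11 that were kept.

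The other rises in the list were Stfa2l1, a stefin (6.15, SE 1.91), Slfn4, a schlafen gene of myeloid cells (4.57, SE 1.46), and the C-type lectin receptor Clec4e (4.54, SE 1.21). The formyl peptide receptor Fpr2 (3.97), the decoy receptor Il1r2 (3.33), Trem1 (2.38), the cathelicidin Camp (2.12) and Mpo (0.94) also passed. Slfn4, Il1r2 and Mpo did so narrowly, at adjusted p of 0.0494 to 0.0497. The calprotectin genes S100a8 and S100a9 were among the strongest signals in triple Bcat breast, at 14.37, 14.02 and 13.78 for S100a8. They did not pass, and normal gland 1 was the highest gland: S100a8 read 11.22 there and 7.85, 8.39 and 7.40 in the other glands (5.72, SE 2.02, adjusted p = 0.0782), and S100a9 differed by 6.37 (SE 2.40, adjusted p = 0.103). Clec4d (3.77, adjusted p = 0.0525), Ngp (2.50, adjusted p = 0.0678) and Mmp9 (3.56, adjusted p = 0.114) did not pass either.

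Ngp and Camp, granule genes of immature neutrophils, followed another pattern across arrays. Ngp, neutrophilic granule protein, read 10.10 in triple Bcat 1 but 5.05 and 4.90 in triple Bcat 2 and 3, against 4.19, 4.75, 4.90 and 4.40 in normal gland. Camp read 9.0, 5.78 and 5.62 in triple Bcat breast, against 4.77, 4.77, 5.34 and 4.92 in normal gland. Both genes were high in the animal of triple Bcat 1, while the second animal was within or close to the gland range. Elane, neutrophil elastase, read 4.19, 4.12 and 4.01 in triple Bcat breast, against 4.24, 4.73, 4.16 and 4.12 in normal gland, with no detectable difference (-0.17, adjusted p = 0.573). Mpo read 5.58, 4.30 and 3.86 in triple Bcat breast, and triple Bcat 3 lay inside the gland range of 3.49 to 4.19.

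Other leukocytes were represented by few calls. Of 21 macrophage and monocyte genes only Arg1, arginase 1, passed (3.85, SE 1.21, adjusted p = 0.0462), at 13.16, 12.62 and 11.99 against 9.37, 7.51, 9.13 and 8.77, and its call was lost when any single array was left out. None of 16 T and NK cell genes, 13 B and plasma cell genes or 8 MHC class II genes passed, with list medians of -0.13, 0.23 and -0.24. None of 20 interferon-stimulated genes or 19 other chemokines passed, with medians of 0.04 and 0.19. Of 12 mast cell and eosinophil genes 3 fell and 0 rose, with a list median of -0.39 and 4 positive differences. The falls were Cpa3, a mast cell carboxypeptidase (-3.24, SE 0.94), Mcpt4, a mast cell chymase (-2.64, SE 0.53, adjusted p = 0.00189), and Ms4a2, a chain of the IgE receptor (-0.51, SE 0.15). Mcpt4 read 4.29, 4.66 and 4.85 in triple Bcat breast, against 8.22, 6.38, 6.75 and 7.58 in normal gland, and its call was kept under the 17 alternatives in which it was tested. The Cpa3 call was lost without triple Bcat 1, and the Cpa3 and Ms4a2 calls without normal gland 3. Ms4a2 was dim and overlapped, at 3.49, 3.01 and 3.12 in triple Bcat breast against 3.31 to 3.99 in normal gland. Its call was lost in 10 of 17 alternatives.

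Receptors and targets of this signalling rose in part. Of 22 inflammatory receptors 6 rose and 0 fell, among them Ccr1 (2.98, SE 0.81), a receptor of Ccl3. Csf3r, Cxcr2, Fpr2 and Il1r2 are in this list and in the neutrophil list and are counted in both. Of 20 feedback genes of NF-kappaB, 3 rose: Ier3 (2.11), Nfkbiz (2.09) and Rel (1.82), a subunit of NF-kappaB itself. Rel read 7.96 in triple Bcat 1 and 5.75 and 5.22 in triple Bcat 2 and 3, against 4.68, 5.09, 4.41 and 4.68 in normal gland. None of these NF-kappaB calls was kept without triple Bcat 1 or without normal gland 3. In 17 genes of STAT3 and the acute phase, the kinase gene Pim1 (1.85) and the transcription factor gene Cebpb (0.99) rose, while the list median was -0.36. Both calls were lost without triple Bcat 1 and without normal gland 3.

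Enzymes of inflammation and matrix breakdown stood beside them. Ptgs2, the inducible prostaglandin synthase, read 10.24, 8.31 and 8.63 in triple Bcat breast, against 4.88, 2.74, 3.51 and 4.65 in normal gland (5.28, SE 1.46, adjusted p = 0.0214). In the same list of 21 genes Alox15, a lipoxygenase, and Ptgfr, the receptor of prostaglandin F, fell by 2.36 (SE 0.68) and 2.27 (SE 0.29). Acod1, which makes itaconate in myeloid cells, rose by 4.82 (SE 1.22), with 10.20, 9.39 and 10.01 against 5.49, 5.06, 5.13 and 5.13. Of 22 metalloproteinases and their inhibitors, Mmp13, a collagenase (5.65, SE 1.81, adjusted p = 0.0496), Mmp10, a stromelysin (4.15, SE 1.18), and Adamts4, an aggrecanase (2.79, SE 0.84), rose, and the inhibitor Timp4 fell (-4.35, SE 0.78, adjusted p = 0.000558). The calls of Ptgs2, Alox15, Mmp13, Mmp10 and Adamts4 were lost without triple Bcat 1 and without normal gland 3, and those of Acod1 and Defb3 without triple Bcat 1. Mmp10 read 10.38, 7.81 and 8.70 in triple Bcat breast, against 4.87, 5.41, 5.14 and 4.53 in normal gland. Among the calls of the prostaglandin and metalloproteinase lists, only those of Ptgfr and Timp4 were kept without triple Bcat 1. The collagenase gene Mmp8, counted in the neutrophil list, also kept its call there. Defb3, a beta-defensin, separated the 2 animals widely: it read 13.43 in triple Bcat 1 and 8.02 and 5.82 in triple Bcat 2 and 3, against 3.31 to 5.27 in the glands (5.20, SE 1.54, adjusted p = 0.0332).

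Few genes set the triple Bcat arrays apart from breast of the other genotypes. These comparisons use the same triple Bcat arrays as the one with normal gland. Against quadruple breast 6 genes passed (0.033% of those tested), and against triple K5Cre breast 7 (0.0385%), all higher in triple Bcat breast. At an unadjusted p under 0.05 it was 8.39% and 12.1% of genes. The prokineticin gene Prok2, whose product is a secreted peptide of neutrophils, read 5.89, 4.90 and 4.52 in triple Bcat breast, against 2.67 to 4.41 (median 3.29) in quadruple breast and 2.84 to 4.30 (median 3.19) in triple K5Cre breast. All 3 arrays lay above both ranges, and the difference was 1.89 in either comparison (adjusted p = 0.0132 and 0.0362). U90926 read 7.87, 5.83 and 7.01 in triple Bcat breast, against 4.58 to 6.49 (median 4.94) in quadruple and 4.68 to 5.59 (median 4.83) in triple K5Cre breast (differences 2.00 and 2.03, adjusted p = 0.00189 and 0.00491). Triple Bcat 2 lay within the quadruple range and above the triple K5Cre range. Sycp2, a gene of the meiotic synaptonemal complex, differed by 1.07 and 1.08, but read no more than 4.08 on any triple Bcat array.

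Bpifb9b (1.03 and 1.13), 1810046K07Rik (1.33 and 1.40) and Lgi3 (0.89 in both) passed in both comparisons, and Fbxl16 (0.90) only against triple K5Cre breast; its difference from quadruple breast was 0.71 (adjusted p = 0.189). Lgi3 and Fbxl16 were named after their values were seen. All 7 genes were among the dimmest by mean over all arrays. Detection calls were not used, and with the dimmest genes left out 0 genes passed in limma in either comparison. With the compared groups fitted alone 5 of the 6 calls against quadruple and 1 of the 7 against triple K5Cre breast were kept, and without triple Bcat 1 it was 3 and 3. Mmp8 came close, at a difference of 3.23 from quadruple and 3.48 from triple K5Cre breast (adjusted p = 0.0536 and 0.0585).

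The inflammatory lists placed the triple Bcat arrays at the upper end of the breast samples, without a gene of them passing. The mean of the ELR chemokine list was 8.85, 8.78 and 9.09 in triple Bcat 1 to 3, against 5.17 to 8.76 in quadruple breast, 5.82 to 8.36 in triple K5Cre breast and 6.14 to 6.67 in normal gland. No quadruple or triple K5Cre breast array reached the lowest triple Bcat array. The neutrophil list mean was 9.65, 8.37 and 8.40 in triple Bcat breast, and 2 of 19 quadruple and 0 of 8 triple K5Cre arrays reached its lowest value. The interleukin list mean was 8.76, 7.01 and 6.70 in triple Bcat breast, and 5 of 19 quadruple and 1 of 8 triple K5Cre arrays reached its lowest value. Quadruple arrays from the same animal are counted separately here.

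**Figure D3:**
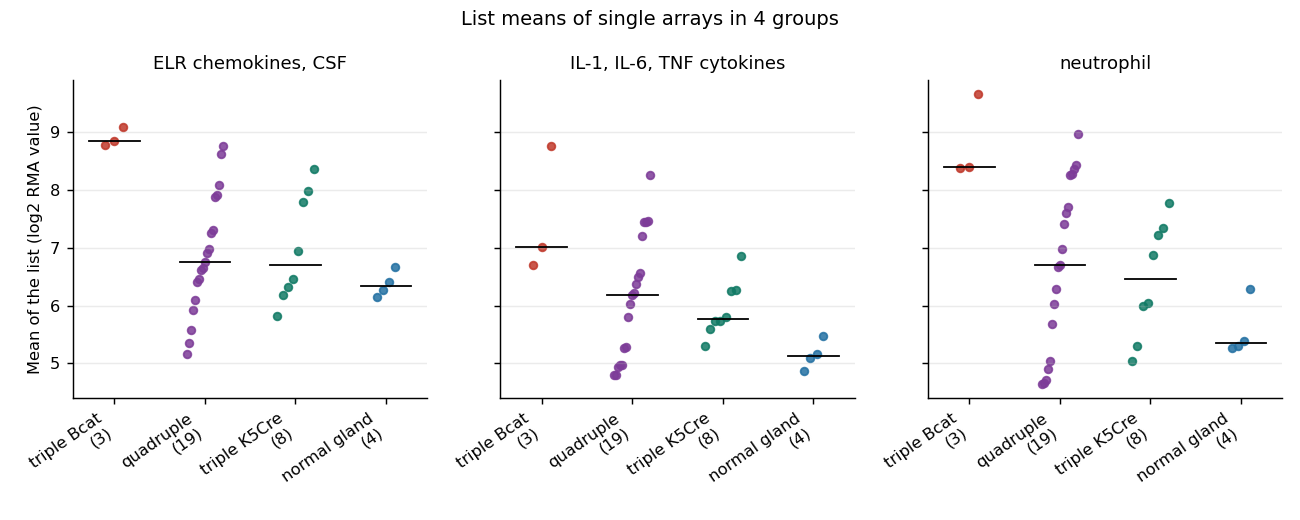
Mean log2 RMA value of 3 gene lists (y axis) in each array of triple Bcat breast, quadruple breast, triple K5Cre breast and normal gland, with the number of arrays in brackets; points are arrays and lines are group medians. The ELR chemokine means of triple Bcat breast, 8.78 to 9.09, lie above all other arrays drawn, while single quadruple arrays reach the triple Bcat range for the other lists.

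Keratins of stratified epithelium were high in triple Bcat breast, but none passed the test. Krt16, a wound keratin, read 14.04, 12.40 and 11.32 in triple Bcat breast, against 9.21, 4.15, 3.84 and 4.07 in normal gland (7.48, SE 2.46, adjusted p = 0.0573), and Krt6a differed by 5.83 (SE 1.91, adjusted p = 0.0560). Normal gland 1 was far above the other glands, and the breast arrays stood in the order triple Bcat 1, 2, 3. Of 30 genes of the cornified envelope, the protein shell of dead squamous cells, all had a positive difference (median 4.99), and 0 passed at an adjusted p under 0.05 in limma. Their mean was 12.03, 9.74 and 7.82 in triple Bcat breast, against 7.0, 4.80, 4.66 and 4.63 in normal gland. Sprr2f, a small proline-rich protein of that shell, read higher in triple Bcat breast and did not pass (6.87, SE 2.34, adjusted p = 0.0670). The desmosomal cadherin gene Dsc3 read 10.98, 10.65 and 10.05 in triple Bcat breast, against 9.46, 3.21, 3.64 and 3.78 in normal gland (5.43, SE 1.76, adjusted p = 0.0526).

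Normal gland 1 also carried hair follicle genes, and the mean of that list was higher in it (7.95) than in triple Bcat 1 to 3 (6.37, 6.45 and 7.52), with the other glands at 4.75 to 4.81. Krt25, a keratin of the hair root sheath named here after its values were seen, read 8.49, 7.83 and 10.67 in triple Bcat breast, against 10.34, 3.30, 3.78 and 3.63 in normal gland. The part of these epidermal genes in the other results was not tested.

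Basal and luminal epithelial markers did not pass, apart from 1 basal gene. Krt5 and Krt14, keratins of basal cells, read 11.58 to 12.28 and 12.32 to 13.97 in triple Bcat breast, against 9.12 to 10.83 and 8.63 to 11.24 in normal gland, without overlap (1.89 and 3.25, adjusted p = 0.278 and 0.135). The oxytocin receptor gene Oxtr, which serves milk ejection, alone passed of 18 basal genes, and it fell: 4.54, 8.15 and 7.86 against 9.22, 10.25, 10.71 and 10.59 (-3.64, SE 1.12, adjusted p = 0.0416). That call was lost without triple Bcat 1 and without normal gland 3. Krt8 and Krt18, keratins of luminal cells, were lowest in triple Bcat 1 (10.41 and 9.75), while triple Bcat 2 and 3 lay in or near the gland range (-1.15 and -1.43, adjusted p = 0.436 and 0.335). Epcam, an epithelial adhesion gene, had the same order, at 10.08, 11.98 and 11.78 against 11.70 to 12.40 (-1.01, adjusted p = 0.470). Krt5, Krt14, Krt8, Krt18 and Epcam read at least 8.63 on all 7 arrays.

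Of 12 genes of hormone-sensing luminal cells none passed (median -1.20, 9 negative). Their mean was 6.26, 7.90 and 7.87 in triple Bcat 1 to 3, against 7.84, 7.56, 9.09 and 8.46 in normal gland, so only triple Bcat 1 lay below all glands. Foxa1, a partner of the estrogen receptor, read 3.65 in triple Bcat 1 but 9.38 and 9.91 in triple Bcat 2 and 3, against 9.39, 8.84, 11.36 and 10.08 in normal gland. Pgr, the progesterone receptor gene, read 4.05, 9.55 and 9.05 in triple Bcat breast, against 8.30, 7.34, 10.62 and 8.86 in normal gland. Both genes, named here after their values were seen, were near the bottom of the scale in triple Bcat 1 and at gland level in the second animal. Esr1, the estrogen receptor gene, was lower in all breast arrays (7.06, 8.59 and 8.73 against 10.15 to 11.07) and did not pass (-2.47, SE 1.18, adjusted p = 0.210). The antibody chain genes Ighm and Jchain, of B and plasma cells, split in the same way: Ighm read 7.77, 13.66 and 13.88 in triple Bcat breast, against 13.40 to 13.64 in normal gland. Jchain, also named after its values were seen, read 4.97, 11.29 and 11.58 in triple Bcat breast, against 10.44 to 11.47.

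Milk protein genes were low in triple Bcat breast, and the glands differed among themselves. Csn2, beta-casein, read 4.19, 4.76 and 4.82 in triple Bcat breast, against 9.06, 13.62, 12.89 and 13.38 in normal gland (-7.64, SE 2.54, adjusted p = 0.0599). Csn1s2a, another casein, differed by -8.20 (SE 2.75, adjusted p = 0.0626). Wap, whey acidic protein, named after its values were seen, was at 4.84 in normal gland 1 but at 14.55, 11.06 and 13.53 in the others, and at 5.26, 4.52 and 4.59 in triple Bcat breast. None of 11 milk genes passed (median -5.04), all had a negative difference, and for 8 of them all triple Bcat arrays lay below all glands, as did 16.1% of all genes.

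Ctnnb1, the beta-catenin gene, read 12.40, 13.16 and 13.14 in triple Bcat breast, against 12.94, 12.44, 12.59 and 12.70 in normal gland. The groups overlapped (0.15, SE 0.19, adjusted p = 0.697). Its value depended on the probe set and the weights. Array weights, estimated without the animal block, were 0.26, 8.24 and 1.29 for triple Bcat 1 to 3, so that fit leaned on triple Bcat 2. The Ctnnb1 difference was 1.40 with the mean of its probe sets (adjusted p = 0.0935) and 2.52 with the most variable one (adjusted p = 0.0835). With array weights the Ctnnb1 difference was 0.44 (adjusted p = 0.000728). Over all alternatives its adjusted p ranged from 0.000728 to 0.987. Of 24 measured Wnt feedback targets only Cd44, a hyaluronan receptor, passed (1.75, SE 0.54, adjusted p = 0.0447), with normal gland 1 at 11.81 inside the breast range of 11.75 to 12.19. Its call was lost when any single array other than normal gland 1 was left out. Axin2, a direct feedback target, read 7.73, 9.07 and 8.95 in triple Bcat breast, against 9.07, 7.09, 6.88 and 7.19 in normal gland (0.91, SE 0.98, adjusted p = 0.646). So triple Bcat 2 and 3 and normal gland 1 were high, while triple Bcat 1 was closer to the remaining glands. Mmp7, a matrix protease and Wnt target, showed the same split with a wider gap: 6.35, 12.70 and 11.69 in triple Bcat breast, against 12.46, 5.64, 6.01 and 6.13 in normal gland. Notum, a Wnt deacylase, read 5.56, 7.97 and 8.30 in triple Bcat breast, against 8.0, 5.12, 4.31 and 4.25 in normal gland; both genes were named after their values were seen.

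Lef1, a nuclear partner of beta-catenin, also overlapped, at 5.53, 5.64 and 6.30 against 6.47, 4.55, 4.82 and 4.37 (0.71, adjusted p = 0.654). The mean of the Wnt target list was 7.25, 8.70 and 8.66 in triple Bcat 1 to 3, against 8.50, 6.68, 6.85 and 7.03 in normal glands 1 to 4. Its median difference was 0.81 with all arrays, and -0.31 against normal gland 1 alone. Thus the glands of the other genotypes lay below all breast arrays in the list mean, and the gland of the same genotype lay inside their range. Among 27 Wnt receptors and modulators 2 fell: Rspo1, a secreted enhancer of Wnt signalling (-4.54, SE 1.44, adjusted p = 0.0481), and the receptor Fzd4 (-3.06, SE 0.74). Among 19 Wnt ligands Wnt5b fell (-2.73, SE 0.84). Of 20 genes of the beta-catenin destruction and junction complexes, the kinase gene Csnk1a1 rose slightly (0.53, SE 0.16) and the repressor Tcf7l1 fell (-1.15, SE 0.31). Over all genes 7.12% were called in either direction, so calls as few as these are near the share of all genes. No call of these 4 lists was kept without triple Bcat 1.

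**Figure D4:**
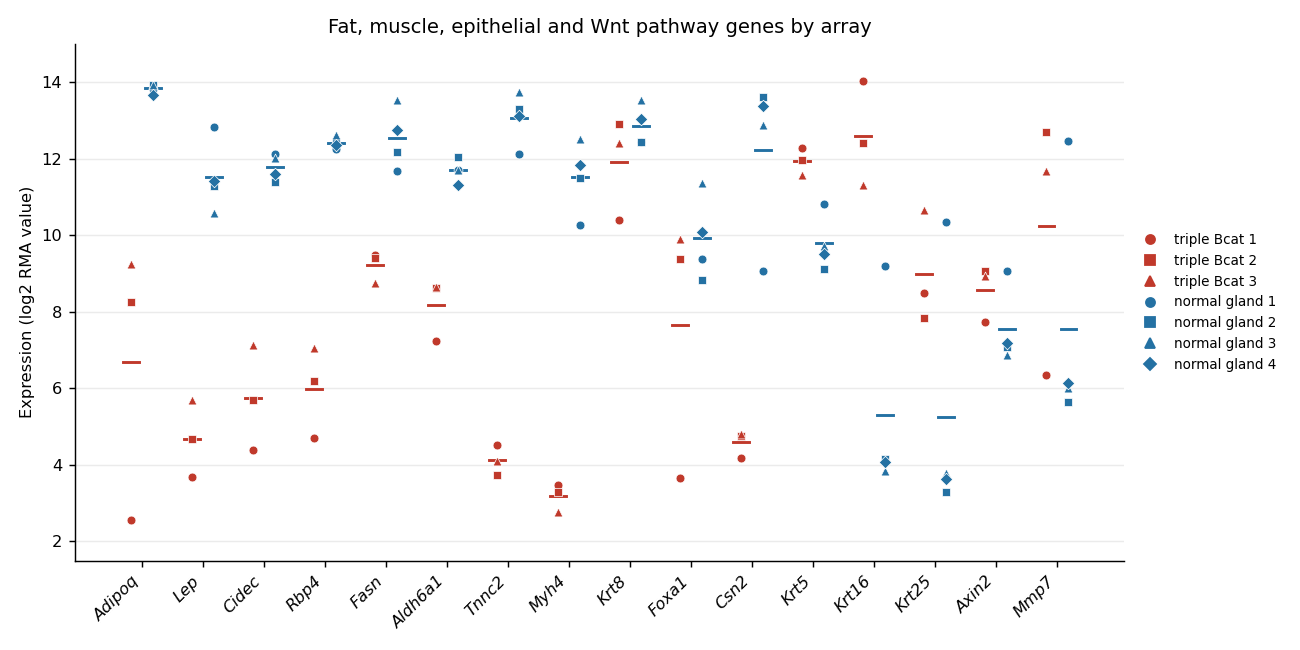
Log2 RMA value (y axis) of 16 fat, muscle, epithelial and Wnt pathway genes in each array, with triple Bcat breast in red to the left of normal gland in blue; the symbols tell the arrays apart and the short lines are group means. Fat and muscle genes lie lower in all triple Bcat arrays, triple Bcat 1 stands apart for Foxa1 (3.65) and Mmp7 (6.35), and normal gland 1 stands apart from the other glands for Csn2, Krt16, Krt25, Axin2 and Mmp7.

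Genes of cell division were higher, and some of them passed. All 24 measured mitotic genes had a positive difference, from 1.11 to 2.05 (median 1.49), and 8 passed. Mki67, a marker of cycling cells, read 9.18, 10.56 and 10.13 in triple Bcat breast, against 8.03, 8.63, 7.24 and 8.72 in normal gland (1.66, SE 0.48, adjusted p = 0.0290). Triple Bcat 1 was the lowest breast array, and the groups did not overlap. The checkpoint kinase gene Bub1 (2.05, SE 0.61), the kinetochore motor gene Cenpe (2.01, SE 0.64) and Cdc20 (1.64, SE 0.52), an activator of the anaphase-promoting complex, also rose. All triple Bcat arrays lay above all glands for 23 of the 24, against 12.4% of all genes. Rrm2 (1.91) and Rrm1 (1.16), the subunits of ribonucleotide reductase, were the 2 of 25 replication genes that rose. Most of these calls were close to the threshold: of the 8 mitotic calls, 2 were kept without triple Bcat 1, and 0 without triple Bcat 2, triple Bcat 3 or normal gland 3. The mitotic list mean was 7.55, 8.40 and 8.11 in triple Bcat breast, against medians of 8.44 in quadruple and 8.70 in triple K5Cre breast and 5.77 to 6.95 in normal gland. No mitotic gene had a positive difference from quadruple or triple K5Cre breast, and none passed there. The cell cycle inhibitor gene Cdkn2c fell (-2.83, SE 0.46, adjusted p = 0.000202), at 7.65, 8.80 and 8.80 against 10.91 to 11.42, and this call was kept without any single array.

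Genes of growth factor signalling moved singly. Hbegf, a ligand of the EGF receptor, read 11.44, 8.86 and 7.80 in triple Bcat breast, against 6.30, 5.54, 5.11 and 5.98 in normal gland (3.98, SE 1.24, adjusted p = 0.0438). Adam17, the protease that releases such ligands and tumour necrosis factor from the membrane, rose by 1.02 (SE 0.20, adjusted p = 0.00144), with 9.77, 9.49 and 9.72 against 8.72, 8.66, 8.39 and 8.90. The Hbegf call was lost without triple Bcat 1 and without normal gland 3. The Adam17 call was kept without any single array and lost with the most variable probe set of the gene. Nrg4, a ligand of ErbB4 made by fat, fell (-3.65, SE 0.70, adjusted p = 0.00108). The ERK phosphatase gene Dusp5 rose by 1.88 (SE 0.49), and Fgf10, a growth factor of the mammary stroma, fell by 2.27 (SE 0.45). Among 30 tumour suppressors and 33 oncogenes struck by insertional mutagens, Map2k4 (1.12) and Mcl1 (0.59) rose, Fgf10 fell, and the others did not pass, with list medians of -0.02 and -0.08. The Map2k4 and Mcl1 calls were lost without triple Bcat 1 and without normal gland 3. Pmaip1, a BH3-only cell death gene, whose call was lost in the same fits, was the single p53 target of 17 that rose (3.56, SE 1.03), and Car12, a carbonic anhydrase, rose by 4.0 (SE 0.86, adjusted p = 0.00333) among 26 hypoxia and glycolysis genes. Over all genes 7.12% were called in either direction. Calls as few as those in the tumour suppressor, oncogene, p53 and hypoxia lists are near that share.

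Fibroblast and matrix genes differed from normal gland in both directions. Of 17 genes of resident fibroblasts 4 fell and 0 rose: Ogn, osteoglycin (-4.22), Clec3b, tetranectin (-3.80), Abca8a (-3.74) and Gsn, gelsolin (-2.68). Clec3b read 5.26, 5.88 and 6.69 in triple Bcat breast, against 9.62, 9.30, 9.64 and 10.24 in normal gland (SE 0.72, adjusted p = 0.00107), and it was the one of the 4 calls kept without triple Bcat 1. By contrast Col12a1, a collagen of wounded matrix, rose (3.77, SE 1.08, adjusted p = 0.0274), the one call among 17 matrix genes. Of these genes 16 had a positive difference (median 0.97), and 7 had all triple Bcat arrays above all glands, against 12.4% of all genes. Esm1, a proteoglycan of endothelial tip cells, rose by 3.12 (SE 0.80), and the other 20 endothelial genes did not pass. Over all genes 7.12% were called in either direction, so single calls in the matrix and endothelial lists are near that share. The Col12a1 and Esm1 calls were lost without triple Bcat 1.

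Fat genes were lower in every triple Bcat array. Of 18 white adipocyte genes 13 fell and 0 rose, with a median of -3.77. Lep, the gene of leptin, read 3.68, 4.68 and 5.69 in triple Bcat breast, against 12.83, 11.28, 10.58 and 11.41 in normal gland (-6.84, SE 1.38, adjusted p = 0.00189). Retn, resistin, read 5.74, 6.56 and 7.45 in triple Bcat breast, against 12.83, 12.81, 13.52 and 12.94 in normal gland (-6.35, SE 1.34, adjusted p = 0.00272). Adipoq, adiponectin, read 2.56, 8.27 and 9.25 in triple Bcat breast, against 13.67 to 13.93 in normal gland, so its fall (-7.24, SE 2.29, adjusted p = 0.0473) was uneven between the 2 animals. Its call was lost without any single array except triple Bcat 3. The lipid droplet gene Cidec fell by 6.02 (SE 1.45). The order triple Bcat 1, 2, 3, from low to high, held for all 4 genes. Without triple Bcat 1 it was 8 of the 13 calls that were kept, with a median of -3.40.

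Lipid and energy metabolism followed. Of 19 lipogenic genes 13 fell and 0 rose (median -2.77), among them the lipogenic regulator Thrsp (-7.65, SE 2.18), the glyceroneogenic enzyme gene Pck1 (-6.82, SE 1.57), Lpin1, a phosphatidate phosphatase (-3.56, SE 0.82), and Fasn, fatty acid synthase (-3.36, SE 0.74). Of the 13 calls 5 were kept without triple Bcat 1, Fasn among them but not Thrsp, Pck1 or Lpin1, and 8 were kept without normal gland 3. Fasn read 9.48, 9.41 and 8.75 in triple Bcat breast, against 11.67, 12.17, 13.53 and 12.76 in normal gland. Of 20 enzymes of branched-chain amino acid and propionate breakdown 18 fell and 0 rose (median -1.54). For all 20 the triple Bcat arrays lay below all glands, against 16.1% of all genes. Aldh6a1, of valine breakdown, read 7.23, 8.63 and 8.66 in triple Bcat breast, against 11.70, 12.04, 11.72 and 11.32 in normal gland (-3.52, SE 0.64, adjusted p = 0.000691). Hibch, in the same pathway, fell by 2.75 (SE 0.43, adjusted p = 0.000175), and Ivd, of leucine breakdown, by 2.01 (SE 0.41). These 3 calls were kept without any single array, and for the list 6 of 18 were kept without triple Bcat 1.

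The respiratory chain fell by less. Of 23 nuclear genes of its complexes 14 fell and 0 rose, with a median of -0.55. Sdhb, Sdha and Sdhd, subunits of succinate dehydrogenase, fell by 1.16 (SE 0.21), 0.93 (SE 0.22) and 0.92 (SE 0.20). Sdhb read 9.86, 10.28 and 10.34 in triple Bcat breast, against 11.06, 11.43, 11.43 and 11.18 in normal gland. Of the 14 calls only 1 was kept without triple Bcat 1, and 4 without normal gland 3. The oxidative genes Cox8b (-5.12), Pdk4 (-4.19) and Cox7a1 (-3.56) fell as members of the thermogenic list, in which 4 of 12 passed, 0 of them without triple Bcat 1. The retinol carrier genes Rbp4 (-6.37, SE 1.47) and Rbp7 (-3.28, SE 1.05) and the dehydrogenase gene Adh1 (-4.05, SE 1.05) fell among 18 genes of retinol handling. The growth hormone receptor gene Ghr (-3.35, SE 0.76) and the insulin receptor substrate gene Irs1 (-2.38, SE 0.75) were among 6 of 25 hormone and nuclear receptor genes that fell. Of these 2 lists 0 of 3 and 1 of 6 calls were kept without triple Bcat 1.

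The deepest falls were in skeletal muscle genes, of which 21 of 22 fell (median -6.45). Tnnc2, fast troponin C, read 4.53, 3.75 and 4.11 in triple Bcat breast, against 12.13, 13.31, 13.74 and 13.13 in normal gland (-9.12, SE 2.37, adjusted p = 0.0139). The myosin genes Myh4 (-8.55, SE 2.20) and Myh1 (-8.26, SE 2.23) and the troponin gene Tnnt3 (-7.82, SE 2.10) read 2.69 to 4.37 in the triple Bcat arrays, against 10.27 to 12.51 in the glands. The list mean was 4.63, 4.43 and 4.33 in triple Bcat breast, against 9.73, 10.93, 11.29 and 10.60 in normal gland, and in quadruple and triple K5Cre breast it had medians of 4.50 and 4.33 and highest values of 10.25 and 10.61. So all 4 glands carried muscle RNA, and the triple Bcat arrays carried little. Without triple Bcat 1 it was 5 of 21 calls that were kept, with a median of -6.49.

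The muscle and fat levels of the glands moved with the whole comparison, and their part in the other differences was not tested. Against quadruple and triple K5Cre breast, the adipocyte medians were -0.36 and -0.10 and the muscle medians -1.11 and -0.66, with 0 calls in limma for either list. In the same comparisons the neutrophil medians were 2.58 and 2.67 and the ELR chemokine medians 1.64 and 1.66, with 0 calls and 14 of 21 and 10 of 14 genes at an unadjusted p under 0.05 in each. The background at that threshold was 8.39% and 12.1%. The triple Bcat arrays are shared by these comparisons.

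**Figure D5:**
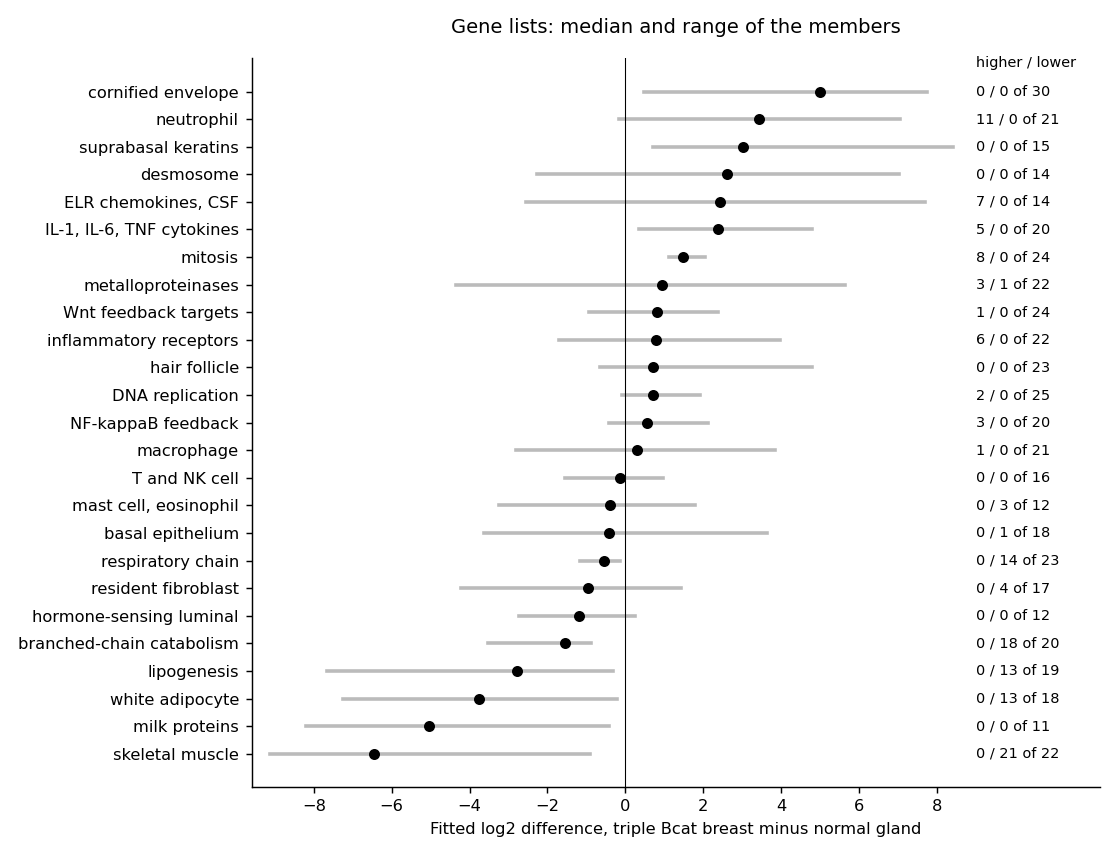
Fitted log2 difference (x axis), triple Bcat breast minus normal gland, for 25 gene lists; the point is the median of the measured members, the grey line runs from the lowest to the highest member, and the figures at the right give how many members passed the test higher and lower. The lists of stratified epithelium and of neutrophils have the highest medians (4.99 and 3.42 for cornified envelope and neutrophil), but 0 of 30 and 11 of 21 members passed, and skeletal muscle has the lowest (-6.45).

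Several other genes were among those with the smallest p. Ranbp3l, a gene of nuclear export, read 3.13, 2.95 and 2.94 in triple Bcat breast, against 4.76, 4.90, 4.86 and 4.69 in normal gland (-1.79, SE 0.19, adjusted p = 1.15e-06). Slc6a13, a transporter of GABA, fell by 2.18 (SE 0.27), Irs3, an insulin receptor substrate of rodent fat, by 2.49 (SE 0.33), and the adhesion gene Negr1 by 3.84 (SE 0.53). Ranbp3l, Slc6a13 and Negr1 kept their calls under the 17 alternatives in which they were tested, including normal gland 1 as the only gland. They were not tested where the dimmest genes were left out. Among rises, Tet2, a DNA demethylase, read 8.63, 8.58 and 8.63 in triple Bcat breast, against 7.60, 7.42, 7.69 and 7.64 in normal gland (1.02, SE 0.17, adjusted p = 0.000238). Its call was lost with the most variable probe set. Midn, midnolin (1.08, SE 0.20), Pram1, an adaptor of neutrophils (1.39, SE 0.26), Chfr, a mitotic checkpoint ligase (0.80, SE 0.16), and Nfe2, a transcription factor of platelets and myeloid cells (2.02, SE 0.42), followed. Pram1 read 6.81, 6.34 and 6.93 in triple Bcat breast, against 5.53, 5.46, 5.26 and 5.24 in normal gland, and its call was kept without any single array.

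Among the largest rises outside the lists, Uox, urate oxidase, read 12.66, 9.45 and 8.15 in triple Bcat breast, against 5.50, 3.94, 3.19 and 3.58 in normal gland (6.37, SE 1.74, adjusted p = 0.0198). Slc7a11, the cystine transporter, read 8.96, 7.30 and 6.25 in triple Bcat breast, against 4.23, 3.73, 2.77 and 2.77 in normal gland (4.38, SE 1.31, adjusted p = 0.0339). Both stood in the order triple Bcat 1, 2, 3, and both lost their call without triple Bcat 1. Serpinb2, an inhibitor of plasminogen activators, differed by 6.55 (SE 2.21) and did not pass (adjusted p = 0.0649), with normal gland 1 at 6.49 and the other glands at 3.23 to 3.62.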

How the data were processed

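Total RNA of each tissue was hybridised to 1 Affymetrix array. The authors deposited 1 table of 45101 probe sets on the log2 scale, computed with RMA per the submitters' processing notes, which name no version. RMA sets all arrays to 1 distribution, so values are relative. Intensities and detection calls were not used, so dim probe sets may hold background alone. The number of arrays limits the precision.

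Probe sets with 1 gene in the platform annotation (34958) were named, with symbols updated through RefSeq's GRCm38.p6 table, and the brightest probe set stood for each of 18194 genes; 0 columns were left unused. All 39 arrays entered a limma 3.58.1 fit (R 4.3.3) with a mean per group, the animal as a random block (duplicateCorrelation, 0.329) and an intensity trend in eBayes. Arrays of 1 animal share weight under the block, so a fitted difference need not equal that of the means. A gene counted as called when its p, adjusted across all genes (Benjamini-Hochberg), was under 0.05. No gene was filtered. The fit was tested on simulated data. The samples, the 54 gene lists and the tests were chosen with earlier results of these data known. List members on no named single-gene probe set were not analysed here.

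Named genes were drawn from the 15 largest rises and falls and the 10 smallest p of each direction against normal gland, skipping clone names, up to 4 rises and 4 falls per list (the 2 smallest p where none passed), members of the ELR chemokine, cytokine and neutrophil lists, 10 fixed markers, and the 5 largest rises and falls against the other breast groups. Not every gene that qualified is named. Ranges and examples are given from these, and exceptions are said to be so. Alternatives were no block, animal means, the compared groups alone, the dimmest genes left out (the lower tertile), cyclic loess, array weights, other choices of probe set, no trend, a 2-fold minimum, and fewer arrays. Promoter sequences and their 250-base windows are RefSeq's.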

Additional observations from a re-analysis of the deposited data

Results flagged for a closer look

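Within the 4 normal glands 1 array stood apart from the others in 20 of 212 values examined, by a gap test. For a value picked beforehand, chance passes that test in about 1 of 20 groups. Krt25, Mmp7 and Xist were named after their values were seen, and list means share genes with the single values. The 20 can therefore not be set against that share. Normal gland 1 was the one apart for Krt25 (10.34), Krt16 (9.21), Dsc3 (9.46), Serpinb2 (6.49), Acod1 (5.49), Axin2 (9.07) and Mmp7 (12.46), in which it was high, and for the caseins Csn2 (9.06) and Csn1s2a (7.73), in which it was low. It was also high in the means of the suprabasal and wound keratin list (7.27), the cornified envelope list (7.0), the hair follicle list (7.95) and the neutrophil list (6.28). Normal gland 2 stood apart for Il1r2 (5.50) and in the means of the EGF family list (6.09) and the insertional oncogene list (7.66). Normal gland 3 stood apart for Xist (5.64), Rrm2 (5.66) and the mean of the epithelial antimicrobial list (7.58), and normal gland 4 for Nfkbiz (8.94).

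Triple Bcat breast differed from breast of another genotype, by limma's adjusted p, in 7 genes. Against quadruple and triple K5Cre breast the log2 differences were 2.00 and 2.03 for U90926, 1.89 and 1.89 for Prok2, 1.33 and 1.40 for 1810046K07Rik, 1.07 and 1.08 for Sycp2, 1.03 and 1.13 for Bpifb9b, and 0.89 and 0.89 for Lgi3. Fbxl16 differed by 0.90 from triple K5Cre breast. The triple Bcat arrays are the same in both comparisons.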

How the results depend on the processing

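All 114 called genes named in the text kept their direction under each alternative in which they were tested, and 4 kept their call in each. There were 18 alternatives, of which dim genes were tested in 17. Among the 44 named genes not called, 24 passed in the same direction with array weights and 15 with the 2 groups fitted alone. Against normal gland, 2033 genes were called with the 2 groups fitted alone (803 higher), 6580 with array weights (3030 higher, 3550 lower), 2174 with the animal of triple Bcat 1 alone (931 higher) and 40 with normal gland 1 as the only gland (0 higher, 40 lower). A 2-fold minimum left 204 higher calls. Higher calls were 24.5% of all calls with all arrays and 46.0% with array weights. The array weights were 0.26, 8.24 and 1.29 for triple Bcat 1 to 3, so the weighted counts leaned on triple Bcat 2. Leaving out 1 array gave 328 to 1247 calls, 38 to 340 higher and 290 to 918 lower. Against quadruple breast, 14 genes were called without the block, 0 with the dimmest genes left out, 2411 with array weights, 11 with the most variable probe set and 727 with the animal of triple Bcat 1 alone, and 9 to 15 without 1 array, with 3 of the 6 calls kept without triple Bcat 1. Against triple K5Cre breast, 3 were called with animal means, 11 with the groups alone, 0 with the dimmest genes left out, 2385 with array weights, 4 with mean probe sets and 839 with the animal of triple Bcat 1 alone, and 7 to 12 without 1 array. Of the 7 calls against triple K5Cre breast 1 was kept with the groups alone, and 3 each with animal means, without triple Bcat 1 and without triple Bcat 2. Fewer genes were tested without the dimmest genes; the other causes were not tested.

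These differences of named genes changed sign, none of them called. With normal gland 1 alone they were Axin2 (-0.57), Lef1 (-0.67), Mmp7 (-2.60), Notum (-0.90), Ctnnb1 (-0.09), Csf1 (-0.26), Pf4 (-0.12), Cxcl15 (0.36), Wap (0.00), Krt25 (-1.39), Xist (-0.22) and, among list medians larger than the spread of the list mean in triple Bcat breast, those of the STAT3 (0.09), hair follicle (-0.87) and retinol (-0.18) lists. In all, 10 of 54 list medians changed sign there, that of the Wnt feedback list (-0.31) included, 7 with the animal of triple Bcat 1 alone, 6 without triple Bcat 1 and 1 to 3 in the other fits with fewer arrays. With animal means they were Csf1 (-0.07) and Pf4 (-0.14). With the animal of triple Bcat 1 alone they were Csf1 (-0.63), Ctnnb1 (-0.29), Fbxl16 (-0.12), Mmp7 (-1.14) and Pf4 (-1.58). With array weights they were Ighm (0.06), Jchain (0.13) and Pgr (0.27). Without triple Bcat 1 they were Ighm (0.30), Jchain (0.43), Pgr (0.28) and, among list medians larger than that spread, the Wnt ligand median (-0.07). Without triple Bcat 3 they were Csf1 (-0.20) and Pf4 (-0.35), and without normal gland 3 Csf1 (-0.13). Over the fits without 1 array, the lowest and highest differences were -0.20 and 0.57 for Csf1, -0.35 and 1.41 for Pf4, -2.75 and 0.30 for Ighm, -2.87 and 0.43 for Jchain, -2.47 and 0.28 for Pgr, and -0.07 and 0.31 for the Wnt ligand median. No paired analysis was possible because no animal gave both a triple Bcat breast array and a normal gland, and replicate numbers only follow sample order.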
